A study of Caenorhabditis elegans with 2 samples.

Results

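The heterochronic protein genes of Caenorhabditis elegans were examined for recovery of CEH-16, a homeodomain protein of the engrailed class. The set holds 10 genes taken from a fixed list of names, out of 19973 protein-coding nuclear genes in the annotation, and every one of the 10 was found there. Of these, 6 act in the early larval stages or at the step from the second to the third stage (lin-14, lin-28, lin-46, lin-66, daf-12 and hbl-1), and 4 act in the late larval stages or at the step to the adult (lin-41, lin-29, mab-10 and dre-1). Chromatin immunoprecipitation and sequencing (ChIP-seq) was done on whole L2 larvae of mixed sex from the strain OP82. Its genotype is unc-119(tm4063) III with the insertion wgIs82, which carries CEH-16 fused to eGFP. The 2 samples are biological replicates of this 1 group, and both come from the same strain, so no comparison between conditions exists. Because whole animals were used, a weak signal cannot tell binding in few cells from weak binding in many.

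Heterochronic genes set the order of larval stages. LIN-14 and LIN-28 promote early fates, HBL-1 holds the fates of the second stage, and microRNAs of the lin-4 and let-7 families switch these proteins off in turn. LIN-41 then delays adult fate until it too is switched off, and LIN-29 with its cofactor MAB-10 drives the terminal differentiation of the epidermis. The lateral epidermal seam cells, in which CEH-16 is known to act, divide and finally fuse on this schedule.

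Peaks were deposited as lists with a signal for each interval, on the scale of the authors' peak caller, and 4 lists on the build ce11 were used. Replicate 1 has 28214 intervals, replicate 2 has 30000 and the pooled data have 30000, all made to include background. A stricter list of 1358 peaks passed a threshold on the irreproducible discovery rate (IDR), which is estimated from how interval ranks compare between lists. Of these, 1337 overlapped an interval in both replicate lists. IDR signals ran from 23.2 to 190.0 with a median of 33.5. An interval is called top in a replicate when its signal is among the 1358 highest there, which corresponds to at least 13.6 in replicate 1 and 13.3 in replicate 2. Read depth is unknown, and whether an interval would be recovered without the tagged protein was not tested. The replicate signals were not put on a common scale here. Differences between them at a peak are therefore descriptive and are to be read beside the ratio over all IDR peaks given below.

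IDR peaks lay at 6 of the 10 genes, 5 of the 6 with an early role and 1 of the 4 with a late role. A gene counted when a summit lay in it or within 5 kb of either end, a rule met by 14.4% of all protein-coding genes. The 10 windows were longer than usual, with a median of 16.997 kb against 12.03 kb, so the share alone does not compare like with like. Together the windows held 12 IDR summits in 0.212 Mb, or 56.5 per Mb, against 13.5 per Mb over the whole genome. The early windows held 9 summits at 70.4 per Mb and the late windows 3 at 35.5 per Mb, and all 3 late summits were at lin-41. No test was made of these densities, since genes are not replicates and the set was chosen with results known.

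The X chromosome carries 3 of the genes and 7 of the 12 summits. All 3 have an early role and no late-role gene is on X. The contrast of early with late windows is therefore in part one of X with autosomes. The windows of lin-14, daf-12 and hbl-1 held 80.6 summits per Mb against 19.5 per Mb over all of X. The 7 autosomal genes held 39.8 per Mb against 12.3 per Mb over the autosomes. Both genes on chromosome I and the 1 on IV had a peak, and none of the 4 on II and V had one. The pooled X-linked windows thus exceeded the density of X, and the pooled autosomal windows exceeded that of all autosomes. Of the 5 autosomal summits, 3 were at lin-41. The density of each single autosome was not computed.

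**Figure D1:**
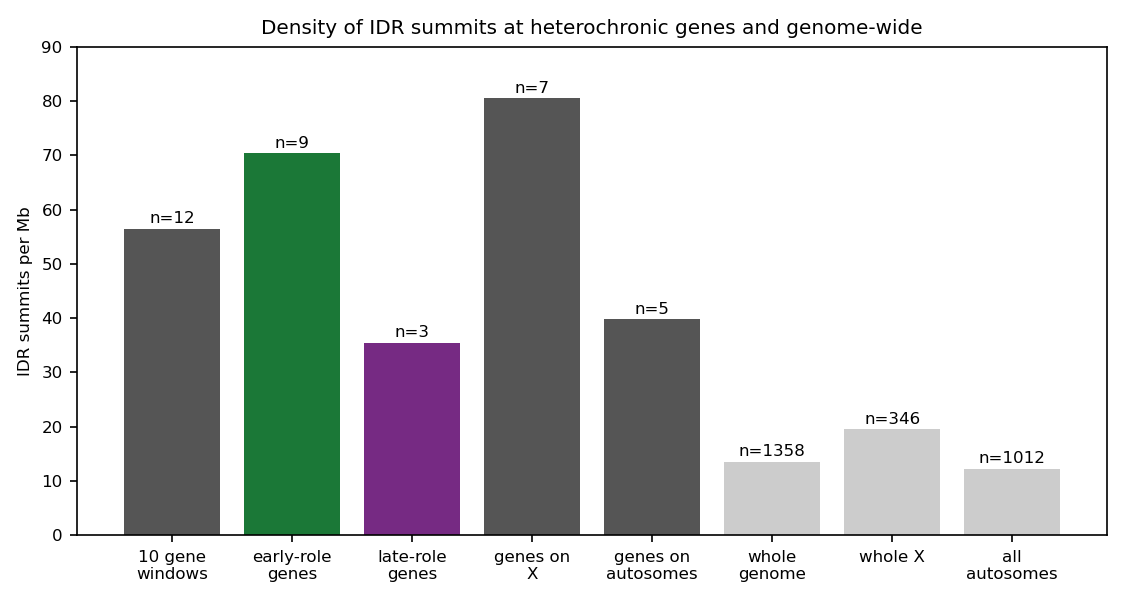
Density of IDR summits, in summits per Mb, in the windows (gene plus 5 kb on each side) of the 10 heterochronic genes, of subsets of them, and over the genome, with the number of summits above each bar. The 10 windows stand at 56.5 per Mb and the genome at 13.5 per Mb, with no error bar because the density rests on 1 list.

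The strongest peaks at these genes were at lin-41 (64.9 and 63.2) and daf-12 (61.3), which ranked 134, 150 and 160 of the 1358. The weakest were at lin-14 (25.3, rank 1167) and daf-12 (26.6, rank 1076). Their median was 42.5, and 9 of the 12 exceeded the median of the whole list. By position, 6 summits were upstream of the gene, 2 in introns and 4 beyond its 3′ end, and none was in an exon. Only 4 of the 12 were within 1 kb of a protein-coding 5′ end (33.3%), against 55.7% of all IDR summits. The median distance to the nearest such end was 1314 bp here and 724.5 bp over all IDR summits. Many worm transcripts are trans-spliced, so an annotated 5′ end need not be where transcription starts.

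**Figure D2:**
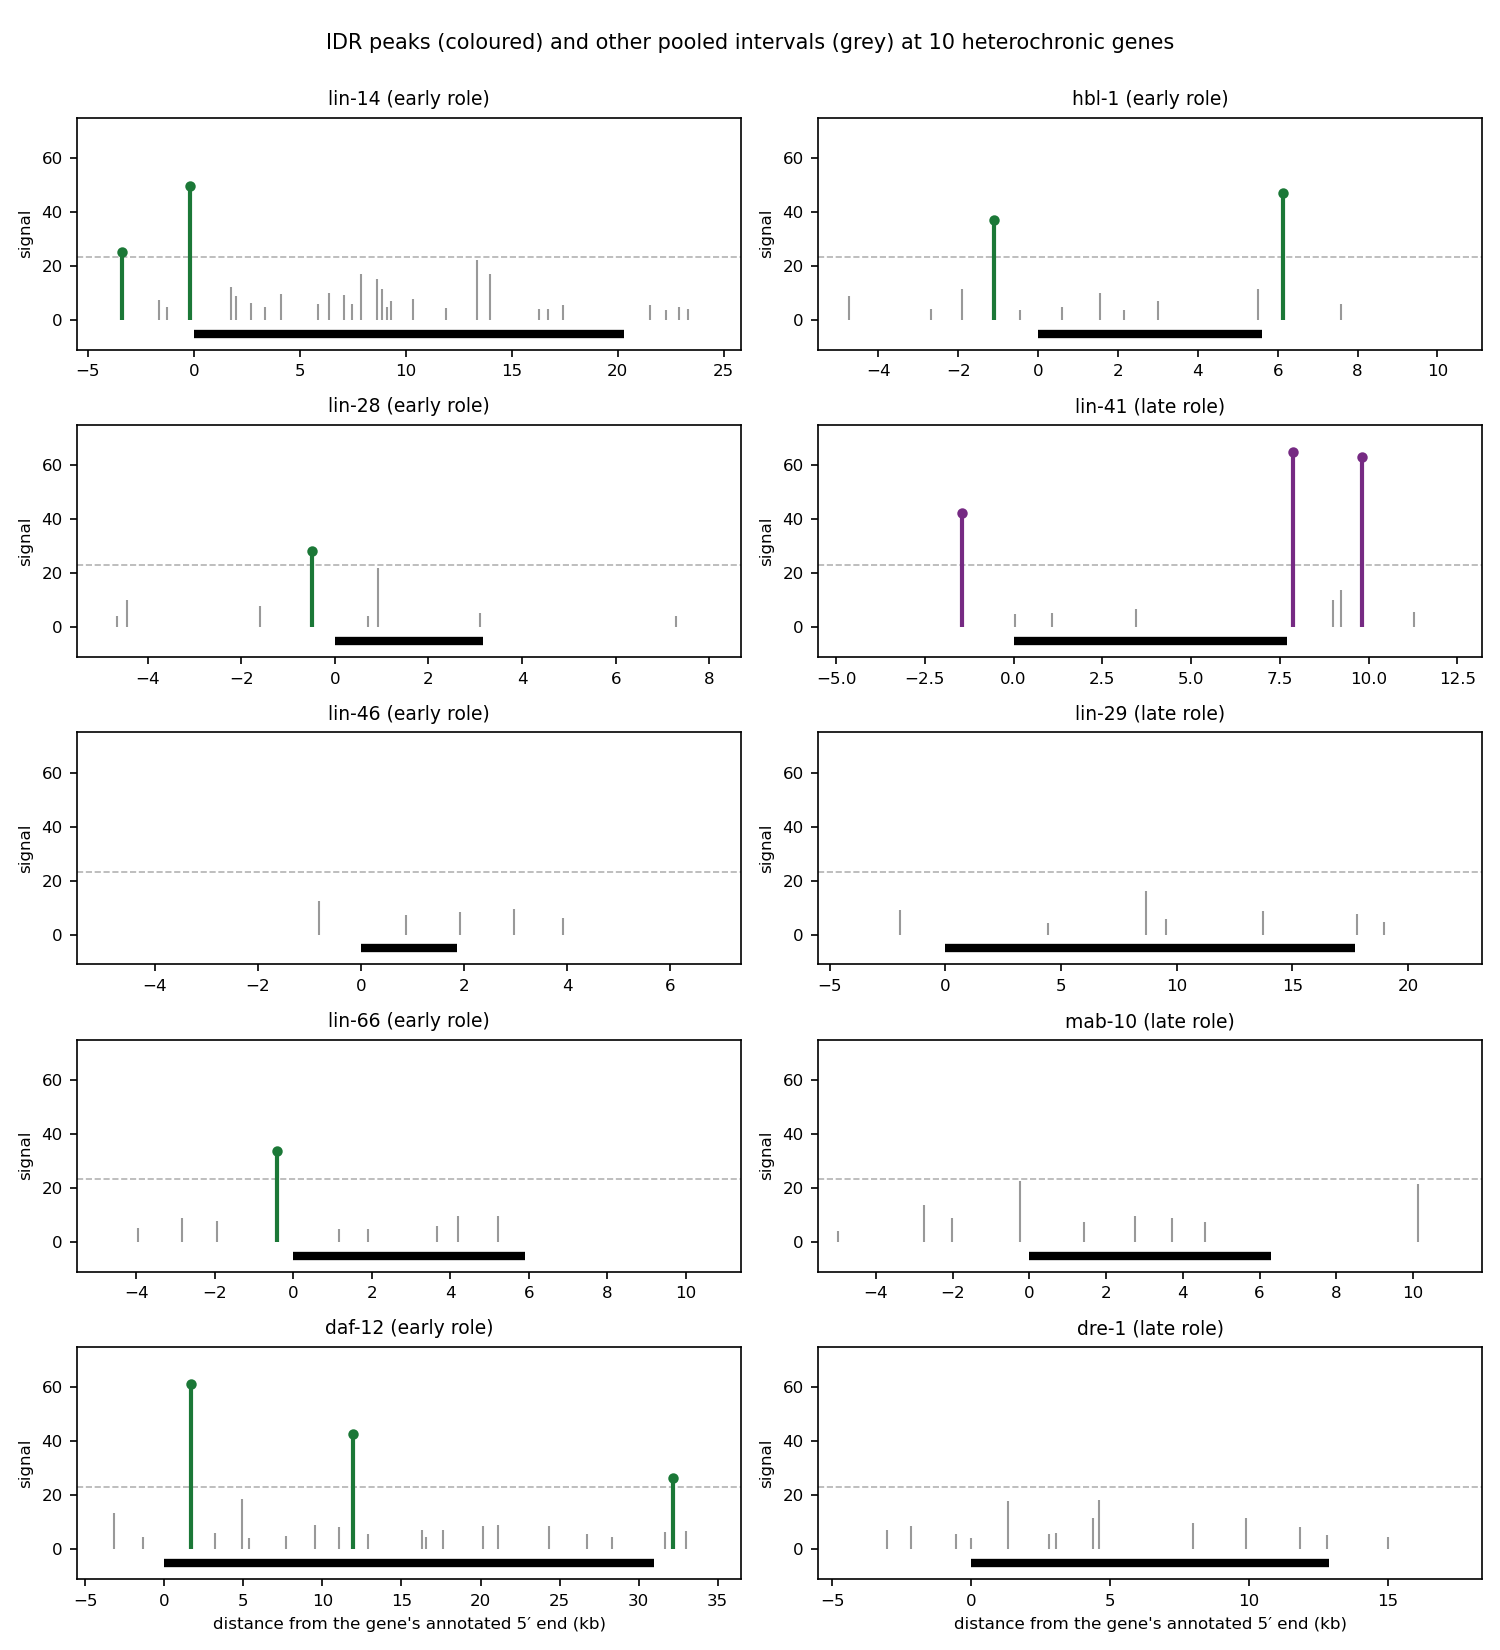
Signal (vertical axis) of IDR peaks (coloured, with a dot) and of pooled intervals that overlap no IDR peak (grey) against distance in kb from the annotated 5′ end of each gene, with the gene as a black bar and the lowest signal of the IDR list (23.2) dashed. Coloured peaks stand at 6 genes, and at mab-10 a grey interval of 22.6 ends just under the dashed line. That line comes from the IDR list and is no cut-off for the grey pooled signals.

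lin-14 (WBGene00003003, chrX:11465560-11485871, plus strand) encodes the nuclear protein that specifies the fates of the first larval stage. Its main IDR peak, chrX:11465217-11465512 with signal 49.6, had the summit 195 bp upstream of the first annotated 5′ end and 14996 bp upstream of the second. The signal there was 27.3 in replicate 1 and 26.0 in replicate 2, with nearly the same rank in each list, 314 and 311. A short noncoding RNA gene, T25C12.8, starts 60 bp from the summit on the opposite strand, and another, T25C12.9, ends 34 bp from it. A second IDR peak, chrX:11462028-11462323 with signal 25.3, lay 3384 bp upstream of the first 5′ end. It had 9.08 in replicate 1 and 12.6 in replicate 2, was top in neither, and is the weakest of the 12. Its sequence is given because it is 1 of the 2 windows with a homeodomain core.

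All sequences here are from the reference genome (RefSeq, WBcel235, the same assembly as ce11), plus strand, 100 bp to each side of the IDR summit. Capitals mark matches to the words searched, each on both strands and none overlapping here with a word of another kind. The words are the homeodomain core (TAATTA or TAATTG or CAATTA), sites of the GATA type (either TGATAA or AGATAA) and the GA repeat (written GAGAGA). The 2 lin-14 windows are chrX:11462076-11462276 and chrX:11465265-11465465. The first has TAATTG 20 bp from its summit and the second, the stronger peak, has no match.
lin-14 peak 1: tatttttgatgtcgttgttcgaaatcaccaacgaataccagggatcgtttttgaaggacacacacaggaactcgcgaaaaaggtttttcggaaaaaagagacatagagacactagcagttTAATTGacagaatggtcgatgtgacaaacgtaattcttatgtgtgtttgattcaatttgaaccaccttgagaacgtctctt
lin-14 peak 2: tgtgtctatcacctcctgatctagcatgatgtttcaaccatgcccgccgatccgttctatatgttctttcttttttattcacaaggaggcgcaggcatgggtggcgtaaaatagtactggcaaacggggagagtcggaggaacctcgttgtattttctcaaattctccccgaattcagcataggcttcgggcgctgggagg

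Within the lin-14 gene no IDR peak was found, although 22 pooled intervals lay there, most of them in introns. With 31 pooled intervals in its window, or 10.2 per 10 kb, lin-14 had the most per length of the 10 genes in the pooled list, while in replicate 1 hbl-1 had more (8.97 against 7.92 per 10 kb). These counts include intervals that overlap IDR peaks. The strongest intronic interval had a pooled signal of 22.2, 3.41 in replicate 1 and 16.3 in replicate 2, and lay 1439 bp upstream of the second 5′ end. Replicate 1 had 3 top intervals of its own, 5939 to 6898 bp upstream of that end, with signals between 14.3 and 16.3, where replicate 2 stood at 9.29 and 9.45. The intronic signal thus reached the top class in 1 replicate at a time and at different places.

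daf-12 (WBGene00000908, chrX:10635908-10666875, plus strand) encodes the steroid hormone receptor that couples larval timing to the dauer decision. The gene has 9 distinct annotated 5′ ends and carried 3 IDR peaks, of which 2 were in introns. The strongest, chrX:10637443-10637738 with signal 61.3, was 1683 bp downstream of the first 5′ end and 6818 bp upstream of the next. It had 36.3 in replicate 1 and 20.4 in replicate 2. The second, chrX:10647674-10647969 with signal 42.6, was 765 bp downstream of the 5′ end of a shorter transcript, with 21.8 and 23.7. The third, chrX:10667925-10668220 with signal 26.6, was 1198 bp past the 3′ end, with 15.3 and 17.6. All 3 were top in both replicates, and replicate 1 was the higher only at the first.

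The third daf-12 summit lay 89 bp from the 3′ end of the neighbouring protein-coding gene F13E6.2, which runs towards daf-12, and 409 bp from a tRNA gene. It is therefore a peak between 2 converging genes, and its nearest protein-coding 5′ end, 3667 bp away, is an internal one of daf-12. The windows shown are the strongest daf-12 peak, chrX:10637491-10637691, and this last one, chrX:10667973-10668173. The strongest peak has no match to any word, and the third has TAATTA 51 bp before its summit and 3 matches to the GA repeat.
daf-12 peak 1: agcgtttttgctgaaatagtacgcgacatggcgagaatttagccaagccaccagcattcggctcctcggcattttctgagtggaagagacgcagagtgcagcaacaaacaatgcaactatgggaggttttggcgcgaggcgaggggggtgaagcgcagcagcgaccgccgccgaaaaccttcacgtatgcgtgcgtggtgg
daf-12 peak 3: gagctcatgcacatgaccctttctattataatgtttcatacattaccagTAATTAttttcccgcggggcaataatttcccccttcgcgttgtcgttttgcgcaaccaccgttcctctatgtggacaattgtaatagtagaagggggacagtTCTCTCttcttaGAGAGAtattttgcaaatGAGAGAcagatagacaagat

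hbl-1 (WBGene00001824, chrX:5822142-5827755, plus strand) encodes a hunchback-like zinc finger protein that promotes the fates of the second larval stage. It had 2 IDR peaks, both just outside the gene. The upstream peak, chrX:5820899-5821194 with signal 37.0, was 1095 bp before the first 5′ end and 2085 bp before the second. It had 23.02 in replicate 1 and 12.8 in replicate 2, where it fell short of the top class. The other peak, chrX:5828118-5828413 with signal 47.0, was 511 bp past the 3′ end, with 15.7 in replicate 1 and 33.7 in replicate 2. The 2 peaks thus differed between the replicates in opposite directions. The next gene, acp-5, starts 1169 bp beyond the second summit on the same strand, and its 5′ end is the nearest protein-coding one. The upstream window, chrX:5820947-5821147, is shown as the one nearer to the start of hbl-1, and none of the words occurs in it.
hbl-1 peak 1: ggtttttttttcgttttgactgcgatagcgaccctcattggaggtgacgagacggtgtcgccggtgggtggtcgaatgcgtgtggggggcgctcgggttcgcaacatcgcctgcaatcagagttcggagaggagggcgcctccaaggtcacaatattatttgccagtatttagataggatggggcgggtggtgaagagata

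lin-66 (WBGene00001562, chrIV:13888079-13893986, plus strand) encodes a protein that lowers lin-28 output. Its 1 IDR peak, chrIV:13887521-13887816 with signal 33.7, was 410 and 420 bp upstream of the first 2 annotated 5′ ends and 4006 bp upstream of the third. It had 25.3 in replicate 1 and 10.01 in replicate 2, with ranks of 389 and 2180, and the lowest ratio of replicate 2 to replicate 1 among the 12 peaks. The summit of the replicate 1 interval lay 197 bp before the IDR summit and that of replicate 2 lay 64 bp after it. A second replicate 1 interval over the same peak, with signal 23.2, had its summit 28 bp after the IDR summit. The window chrIV:13887569-13887769 is shown because it is the most GC-rich of the 12, at 59.7%, and it holds GAGAGA at 2 places.
lin-66 peak 1: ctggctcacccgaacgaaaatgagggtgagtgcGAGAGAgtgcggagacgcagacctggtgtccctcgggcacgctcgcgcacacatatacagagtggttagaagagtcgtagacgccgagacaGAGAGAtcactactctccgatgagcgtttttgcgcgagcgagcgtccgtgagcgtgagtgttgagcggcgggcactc

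Over the 12 windows the homeodomain core was found in 2, against 15.4% of all 1358 IDR windows. GATA-type words were in 3 against 26.2%, and the GA repeat in 4 against 40.8%. No test was made of these shares. The cores were in the peaks with signals of 25.3 and 26.6, the weakest of the set, and no window of the 9 peaks above the median of the IDR list held one. The share of cores among all IDR windows above that median was not computed, so no link between the core and signal can be read from this. The median GC content was 50.2% in the 12 windows and 44.8% in all IDR windows, with a range from 34.3% at a lin-41 peak to 59.7% at lin-66.

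lin-28 (WBGene00003014, chrI:8407630-8410804, minus strand) encodes an RNA-binding protein that blocks processing of let-7 and keeps early fates. Its 1 IDR peak, chrI:8411133-8411428 with signal 28.2, was 477 bp upstream of the outer 5′ end and 1361 bp upstream of the inner one. It had 10.7 in replicate 1 and 22.9 in replicate 2, and was top in replicate 2 alone. The pooled list had another interval, with signal 21.8, at the inner 5′ end itself. Its replicate 2 summit lay 1 bp inside that end with a signal of 14.5, against 10.5 in replicate 1, and it did not enter the IDR list. Neither interval of lin-28 was thus among the top of replicate 1.

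lin-46 (WBGene00003031, chrV:12968855-12970730, plus strand) encodes a protein that acts downstream of lin-28 to allow later fates. It was the only early-role gene with no IDR peak, and its strongest interval was the weakest of the 10 genes in each replicate. Its window was also the shortest of the 10, at 11.876 kb, with 4 intervals in replicate 1 and 6 in replicate 2. Whether window length bears on this was not tested. The strongest interval in its window had 4.48 in replicate 1 and 6.17 in replicate 2, with ranks of 10875 and 5076. In the pooled list the strongest had 12.6, 804 bp upstream of the 5′ end of lin-46 and 69 bp from that of the neighbouring gene R186.8. The nearest IDR summit was 30.0 kb from the gene.

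lin-41 (WBGene00003026, chrI:9334800-9342496, minus strand) encodes a TRIM-NHL RNA-binding protein, a target of let-7 that holds back the adult programme. It carried 3 IDR peaks, the same number as daf-12 in a much shorter gene, and all 3 were top in both replicates. The upstream peak, chrI:9343807-9344102 with signal 42.4, was 1459 and 2036 bp before the 2 annotated 5′ ends, with 30.4 in replicate 1 and 17.5 in replicate 2. The strongest, chrI:9334471-9334766 with signal 64.9, lay 181 bp past the 3′ end of the gene, with 31.6 and 39.4. The last, chrI:9332545-9332840 with signal 63.2, lay 2107 bp past the 3′ end, with 35.3 and 26.0.

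The 2 strong peaks at lin-41 were thus on the 3′ side, between it and the gene cbl-1, whose end faces lin-41. The outer of them was 253 bp upstream of the microRNA gene mir-79, which lies in this stretch on the other strand. A short noncoding RNA gene, C12C8.8, began 44 bp from the same summit. The inner summit was 1576 bp from the nearer end of mir-79 and 181 bp from the end of lin-41. Which of these genes, if any, the peaks serve was not tested. Inside lin-41 the pooled list held 3 intervals and none in the IDR list.

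The other late genes had no IDR peak within 5 kb. lin-29 (WBGene00003015, chrII:11917642-11935343, minus strand) encodes the zinc finger factor of adult epidermal fate. Its strongest interval, in an intron 5239 bp upstream of the inner 5′ end, had 17.5 in replicate 1 and was top there, and no interval of replicate 2 overlapped it. The strongest interval of replicate 2 was elsewhere, 1997 bp upstream of the gene, at 7.46. With 7 pooled intervals in 27.7 kb, or 2.53 per 10 kb, lin-29 had the fewest per length of the 10 in the pooled list, while in replicate 2 lin-41 had slightly fewer (2.83 against 2.89 per 10 kb).

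mab-10 (WBGene00003107, chrII:10528084-10534380, plus strand) encodes a cofactor of LIN-29. It had the highest pooled signal among the genes of the set with no IDR peak. An interval at its promoter, 239 bp upstream of the first 5′ end, had a pooled signal of 22.6. It ranked 1616 in the pooled list, where the signal at rank 1358 was 25.1. The lowest IDR signal, 23.2, comes from another list and is no cut-off for pooled signals. The promoter interval had 14.1 in replicate 1, which was top, and 8.17 in replicate 2, which was not. A second interval, 20.02 in replicate 1 and 8.05 in replicate 2, lay past the 3′ end and 650 bp upstream of the gene R166.2. Both intervals were higher in replicate 1.

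dre-1 (WBGene00001089, chrV:6533614-6546500, minus strand) encodes an F-box protein of a ubiquitin ligase that times epidermal maturation. Its strongest intervals were intronic, with 9.80 in replicate 1 and 13.3 in replicate 2 at different places. The pooled list gave 17.9 at the first of these places and 18.2 at the other, and neither replicate had a top interval. The value of replicate 2 ranked 1365, just short of the top class. The nearest IDR summit was 75.1 kb away, the farthest for any of the 10 genes.

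**Figure D3:**
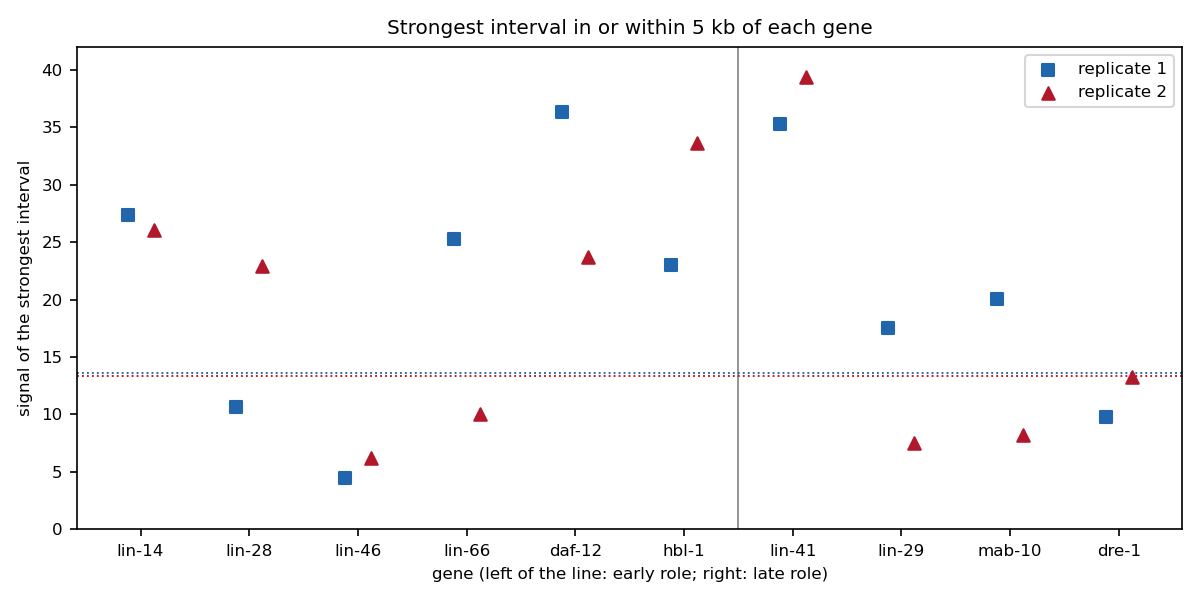
Signal of the strongest interval in or within 5 kb of each gene in replicate 1 (squares) and replicate 2 (triangles), with the lowest signal of the top class of each replicate as a dotted line (13.6 and 13.3). At lin-14, daf-12, hbl-1 and lin-41 both points lie above the lines, at lin-46 and dre-1 both lie below, and the other 4 genes are split.

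By replicate, top intervals were found at 7 of the 10 genes in replicate 1 and at 5 in replicate 2, against 14.2% and 15.2% of all protein-coding genes. The genes in both were lin-14, daf-12, hbl-1 and lin-41. Replicate 1 added lin-66, lin-29 and mab-10, and replicate 2 added lin-28. The early-role genes counted 4 in each replicate, and the late-role genes counted 3 in replicate 1 and 1 in replicate 2. In replicate 1 the early windows held 86.0 top summits per Mb and the late windows 70.9, and in replicate 2 they held 62.6 and 35.5. Every one of the 10 genes had some pooled interval, as did 92.2% of all protein-coding genes, so the relaxed list does not set these genes apart.

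Of the 12 IDR peaks, 8 overlapped a top interval in both replicates, 2 in replicate 1 alone (hbl-1 upstream and lin-66), 1 in replicate 2 alone (lin-28) and 1 in neither (the distal lin-14 peak). Over the whole IDR list 53.0% were top in both. The IDR list was derived from the same replicate lists, so this overlap is no separate check. The log2 ratio of replicate 2 to replicate 1 ran from -1.34 at lin-66 to 1.11 at lin-28, with 6 peaks above 0 and 6 below and a median of 0.02. Over the 1337 IDR peaks with a value in both, the median was -0.09 and the quartiles were -0.68 and 0.51. The order of the 12 signals was only loosely shared, with a Spearman's rho of 0.28 as a description. No such value was computed over all IDR peaks, so it cannot be read as a trait of these genes.

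**Figure D4:**
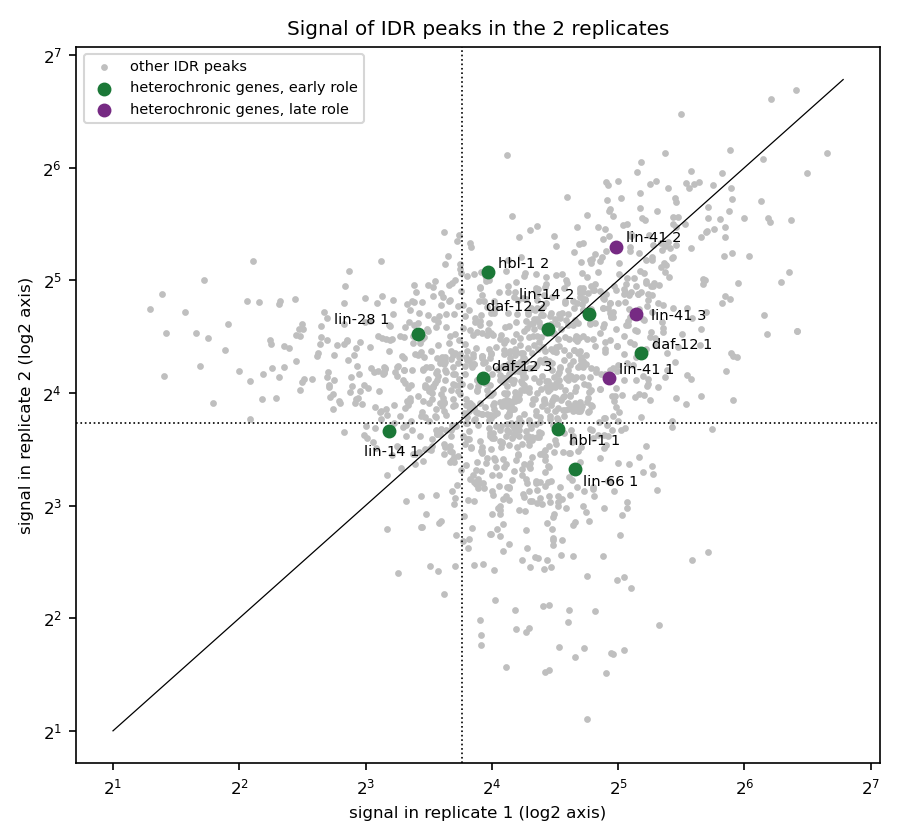
Signal of IDR peaks in replicate 1 (horizontal) and replicate 2 (vertical), both on log2 axes, for the 12 peaks at heterochronic genes (coloured, numbered by order along the gene) and all other IDR peaks (grey), with equality as a solid line and the edge of each top class dotted. The 8 coloured points in the upper right quadrant are top in both replicates, and the distal lin-14 peak is in the lower left.

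Near an annotated 5′ end, within 1 kb, the IDR list had a summit at 4 of the 10 genes (lin-14, lin-28, lin-66 and daf-12), against 4.75% of all protein-coding genes. All 4 have an early role. A gene with more annotated 5′ ends can meet this rule at more places, so this share too does not compare like with like. daf-12 has 9 such ends and met the rule at an internal one, 765 bp from a summit. The peaks of hbl-1 and lin-41 closest to a 5′ end, at 1095 and 1459 bp, fell just outside that distance. At the other limit, that of 5 kb from the gene, the farthest summit counted was 3384 bp from lin-14. The nearest one not counted was 6106 bp upstream of lin-66, had a signal of 33.6 and lay 252 bp upstream of the ribosomal protein gene rpl-29. For the other 9 genes the next summit outside was 10.9 to 75.1 kb away.

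Other genes of the timing pathway also carried IDR peaks. Of 19 further protein-coding genes, 13 had a summit in or within 5 kb, against 14.4% of all protein-coding genes. The lengths of their windows were not set against those of all genes, so that share alone may not compare like with like. Of 7 noncoding RNA genes, 6 were matched in the annotation and 4 had such a summit. The gene let-7 was the one not matched and was not analysed here. All 4 are among the 5 matched microRNA genes, and the same rule was met by 22.6% of the 261 microRNA genes of the annotation. The list was drawn up with earlier results of these data known, so the count is a description. The highest signal was at nhl-2, a TRIM-NHL cofactor of microRNA silencing (111.0), but the nearest 5′ end there was that of tag-340. Next came puf-9, a Pumilio-family gene (77.0), the nuclear receptor gene nhr-25 (56.7) and din-1, a co-repressor gene of DAF-12 (51.8, with 43.0 in replicate 1 and 12.98 in replicate 2). nhr-85 and nhr-23 both stood at 49.6, and the nhr-85 summit was closer to the gene hpo-2. The remaining protein-coding genes, myrf-2, myrf-1, lin-42, blmp-1, ain-1, kin-20 and alg-1, ran from 46.2 down to 24.1.

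Among the noncoding genes, mir-48 and mir-241 shared 1 peak (28.5) closer to the gene unc-39. It lay 4049 bp upstream of mir-48 and 2275 bp upstream of mir-241. The strongest peak at mir-237 (26.8) lay 4986 bp downstream of its 5′ end, near the limit of 5 kb, and was closer to hil-3. At lin-4 a peak of 24.8 lay 325 bp upstream, with the 5′ end of F59G1.4 as the nearest protein-coding one. It had 23.8 in replicate 1 and no overlapping interval in replicate 2. No IDR peak was within 5 kb of alg-2, ain-2, sea-2, lep-2, apl-1, mir-84, lep-5 or daf-9. Among these genes the highest pooled signal ran from 5.79 at daf-9 to 25.7 at ain-2, which ranked 1306 in the pooled list. daf-9 encodes the enzyme that makes the DAF-12 hormone. It had no IDR peak, while daf-12 and din-1 had them, but both of those genes are longer than daf-9. Since only 14.4% of all protein-coding genes met the rule, absence at 1 gene is the common case. This contrast was not tested.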

How the data were processed

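ChIP-seq of eGFP-tagged CEH-16 in L2 larvae was used as peak lists for 2 replicates. Per the file headers, each relaxed list was derived from an alignment and a control alignment, and the IDR list from the pooled and both replicate lists, all on ce11. The authors deposited a signal value per interval on the scale of their caller, with no read counts, so depth is unknown and no counting interval can be given. They also deposited the −log10 of a q-value, which was not used to rank. The tools for alignment and peak calling, and the IDR cut-off, were not given in the sources used here. The ce10 lists were not used.

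Summits were placed 1-based against Ensembl release 115 (WBcel235) with Python 3.11.15 and NumPy 2.4.6. Code was tested on simulated positions. Replicate values are those of the strongest interval overlapping an IDR peak by at least 1 bp. Every gene of the set is named, with other pathway genes that have an IDR summit and any gene whose 5′ end is nearer. The members, roles, lists and words were chosen with earlier results of these data known. No test was made. Alternatives covered window reach, signal, overlap, list and each replicate alone.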

Additional observations from a re-analysis of the deposited data

How the results depend on the processing

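The count of 6 genes was 6 with windows of 1 or 10 kb, with the pooled list and with summits nearest to the gene's own 5′ end, 5 with IDR peaks above the median signal, and 5 to 7 with 1 replicate alone. The 12 summits became 7 with windows of 1 kb. The late-role count of 1 gene ran from 1 to 3 with 1 replicate alone. Of the 12 peaks, 5 were top in both replicates with the 679 highest intervals of each list as the top class, against 8. The median log2 ratio of replicate 2 to replicate 1, 0.02, turned to -0.26 with summits matched within 100 bp and to -0.44 for the peaks above the median signal, and the cause was not tested. The 2 windows with a homeodomain core became 1 with 50 bp to each side, 0 for the peaks above the median signal and 1 with the top intervals of either replicate alone. The 17 other pathway genes became 11 when only summits nearest to their own 5′ end counted. No paired analysis was possible because there is 1 group. Unknown depth limits every statement on absence.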
